A study of Mus musculus with 8 samples.

Results

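The 45 genes described here are effectors of the type I interferon response, the proteins that a cell makes once interferon has bound its receptor. They were chosen by name, one RefSeq transcript per gene symbol (that of the highest mean value), and all 45 were found among the 17551 symbols, or 19353 transcripts, of the deposited tables. Genes with low values were kept in the description.

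The RNA came from lineage-negative cells of mouse bone marrow, in which blood stem and progenitor cells are enriched and mature cells are depleted. The OHT libraries come from cells treated with 4-hydroxytamoxifen (OHT) and labelled Ring1b KO Ring1a-/- Cdkn2a-/-, and the control libraries from cells given ethanol and labelled Ring1b WT Ring1a-/- Cdkn2a-/-, all of the C57BL/6 strain and all after 72 h. Every group thus lacks Ring1a and Cdkn2a by its label, and the control is not a wild-type mouse cell. Both groups were made in cells transduced with the homeobox gene HOXA9, with the leukaemia fusion gene PML-RARa or with the leukaemia fusion gene MLL-AF9, and in cells labelled as not transduced (NT), whose deposited columns are headed as empty, so that an empty vector may have been present. Each of the 8 libraries is the only one of its group, OHT exposure and the labelled loss of Ring1b always go together and cannot be told apart, and the labels say neither by which recombinase OHT acts, nor which part of the gene is removed, nor how many mice gave the cells.

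Ring1a and Ring1b stand in for each other as the ligase by which the Polycomb complex PRC1 ubiquitinates histones. Type I interferons, interferon beta and the interferon alpha family, bind a receptor made of Ifnar1 and Ifnar2. The kinases Jak1 and Tyk2 at the receptor then activate a complex that holds Stat2 and Irf9 and binds the interferon-stimulated response element in the promoters of effector genes. The effectors sense or destroy viral RNA, block viral entry and release, modify proteins with Isg15, or damp the response itself, and myeloid cells make many of them.

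The core of that element was searched as GAAA, any 2 bases, GAAA, on either strand, in windows of 300 bases, 250 before and 50 after the transcription start, from RefSeq on the build GRCm38.p6. Of the 45 genes, 35 had a window, and Usp18, Oas2, Mx1, Mx2, Rtp4, Ifi27l2a, Parp9, Parp14, Iigp1 and Tor3a had none. The stretches below run from 190 to 41 bases before the start in the direction of the gene, with the core in capitals, and are shown because these 3 genes have several copies and rose in OHT libraries.
Ifit1 (chr19:34640699-34640848, forward strand): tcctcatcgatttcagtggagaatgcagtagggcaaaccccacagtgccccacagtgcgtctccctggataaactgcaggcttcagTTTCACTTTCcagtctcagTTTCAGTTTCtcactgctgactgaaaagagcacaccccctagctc
Ifit3 (chr19:34583339-34583488, forward strand): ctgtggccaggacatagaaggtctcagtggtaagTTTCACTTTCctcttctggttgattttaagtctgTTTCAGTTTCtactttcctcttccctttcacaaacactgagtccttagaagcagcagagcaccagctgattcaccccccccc
Isg15 (chr4:156200859-156201008, reverse strand): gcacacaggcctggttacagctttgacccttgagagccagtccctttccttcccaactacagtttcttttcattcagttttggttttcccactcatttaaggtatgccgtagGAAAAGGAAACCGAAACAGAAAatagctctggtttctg

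In Ifit1 and Ifit3 the pairs of cores lie on the opposite strand and read as TTTC, any 2 bases, TTTC, whereas the 3 overlapping cores of Isg15 read on the gene's own strand. Shorter stretches of 40 bases are given for further genes to show how like or unlike the element is between a gene that rose strongly (Rsad2, Slfn5, Gbp2), the Oas genes and a gene that did not pass the test (Bst2).
Rsad2 (chr12:26456548-26456587, reverse strand): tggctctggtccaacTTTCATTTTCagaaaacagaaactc
Slfn5 (chr11:82951932-82951971, forward strand): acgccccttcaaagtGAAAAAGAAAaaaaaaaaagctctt
Gbp2 (chr3:142620589-142620628, forward strand): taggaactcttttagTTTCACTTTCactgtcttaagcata
Oas3 (chr5:120777710-120777749, reverse strand): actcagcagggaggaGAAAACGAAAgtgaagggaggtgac
Oas1a (chr5:120907515-120907554, reverse strand): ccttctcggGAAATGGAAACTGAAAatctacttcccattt
Oas1g (chr5:120887601-120887640, reverse strand): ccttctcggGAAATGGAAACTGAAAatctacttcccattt
Bst2 (chr8:71537572-71537611, reverse strand): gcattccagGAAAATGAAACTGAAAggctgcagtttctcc

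The 40-base stretches of Oas1a and Oas1g are identical letter for letter. Of the 35 genes with a window, 17 held a core (48.6%), against 1079 of all 27025 genes in the table (3.99%). The gamma-activated site, TTC, any 3 bases, GAA, known from genes that respond to interferon gamma, was found in 9 of the 35 (25.7%), against 9.55% of all genes. In Ifitm3, Eif2ak2 and Trim21 the cores lie after the start, and in Trim30a one of them does. The genes were named as interferon effectors to begin with, so the share describes them, and a match of letters is not a site shown to be bound.

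**Figure D1:**
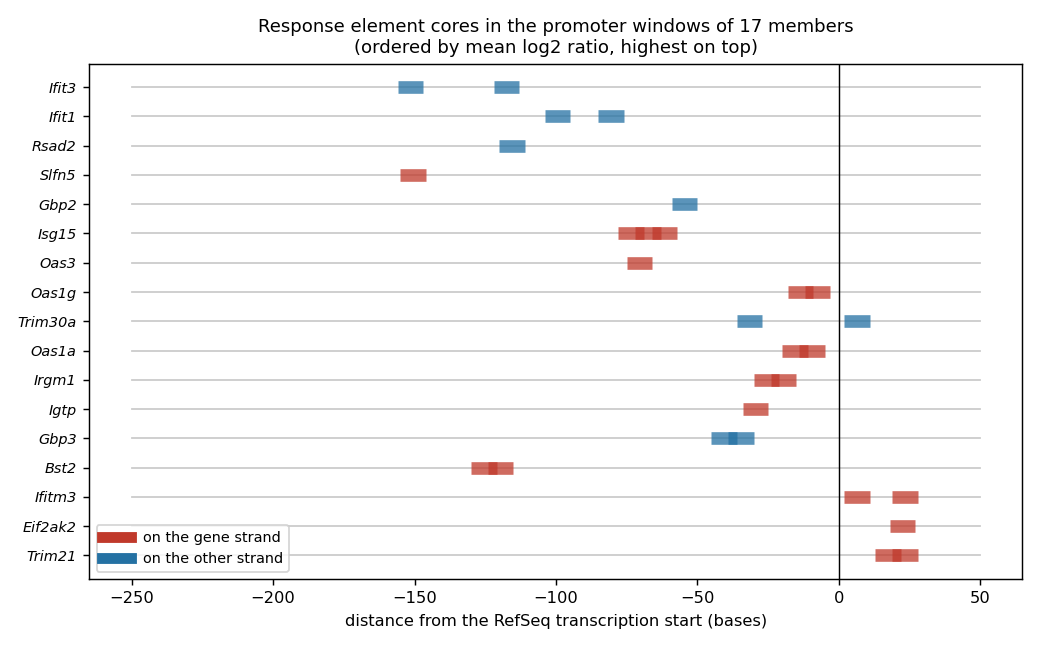
Positions of the response element core in the promoter windows of the 17 genes that hold one, in bases from the RefSeq transcription start, with red marks on the gene strand and blue marks on the other strand. The cores lie between -156 and 28 bases from the start, and the genes run from the highest mean log2 ratio at the top to the lowest at the bottom.

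Read totals were 4226751 to 6998223 per library, and a value here is the authors' normalised read count of a transcript, whose lowest entry corresponds to 1 read and may stand for 0. A ratio is that of OHT to control, taken as log2 after adding 1 to each value. The added 1 understates the change of genes with low values. The sign ± gives limma's moderated standard error of the mean ratio over the 4 contexts. It combines the spread of a gene's own 4 ratios with the spread typical of all transcripts tested. The test was limma with the context as a block, with Benjamini-Hochberg adjustment over the 10599 transcripts with a mean of at least 20, and a gene is said to rise or fall where its adjusted p is under 0.05. With no other replicates, the p-values rest on the spread from context to context, moderated in the same way. Rnf2, which encodes Ring1b, had 856 with OHT against 896 in the control in HOXA9 cells, 771 against 990.4 in PML-RARa cells, 767 against 769.8 in MLL-AF9 cells and 802 against 666 in NT cells, or -0.04 ± 0.14 as a mean log2 ratio (limma adjusted p = 0.85), so this whole-transcript value checks neither label. Reads at Ring1, labelled as knocked out in all groups, were present in every library and fell with OHT (-1.81 ± 0.33, limma adjusted p = 0.040). Of the markers of the labelled progenitors, the transcript of Kit had few reads, 1 to 29 in OHT libraries and 3 to 29 in controls. That of Cd34 had values of 40.9 to 117 in OHT libraries and 10.6 to 96.8 in control libraries. RefSeq lists 2 curated transcripts for each of these genes, of which 1 has values here, so the values need not be the level of the gene.

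Across the 45 genes, 39 had a mean of at least 20 and could be tested, 21 rose with OHT, 0 fell and 18 did not pass. Over all transcripts tested, 6.40% rose and 7.48% fell. At an unadjusted p under 0.05 limma gave 32 of the 39 genes, against 38.0% of all transcripts tested. EdgeR called 28 risen and 0 fallen, against 12.0% and 9.05% of all transcripts tested, and gave 36 at an unadjusted p under 0.05, against 39.9%. The median mean log2 ratio of the 45 genes was 2.07, against -0.03 over all transcripts tested. Ifit1, Ifit3, Oasl1, Rtp4, Ifi44 and Ifi27l2a reached the mean of 20 only through their OHT libraries, all their control values being under 20, so the count among tested genes is a description. In 28 of the 39 tested genes, each of the 4 OHT values lay above each of the 4 control values, against 8.28% of all transcripts tested. In bulk RNA a change in the number of cells of a type and a change in RNA per cell cannot be told apart.

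**Figure D2:**
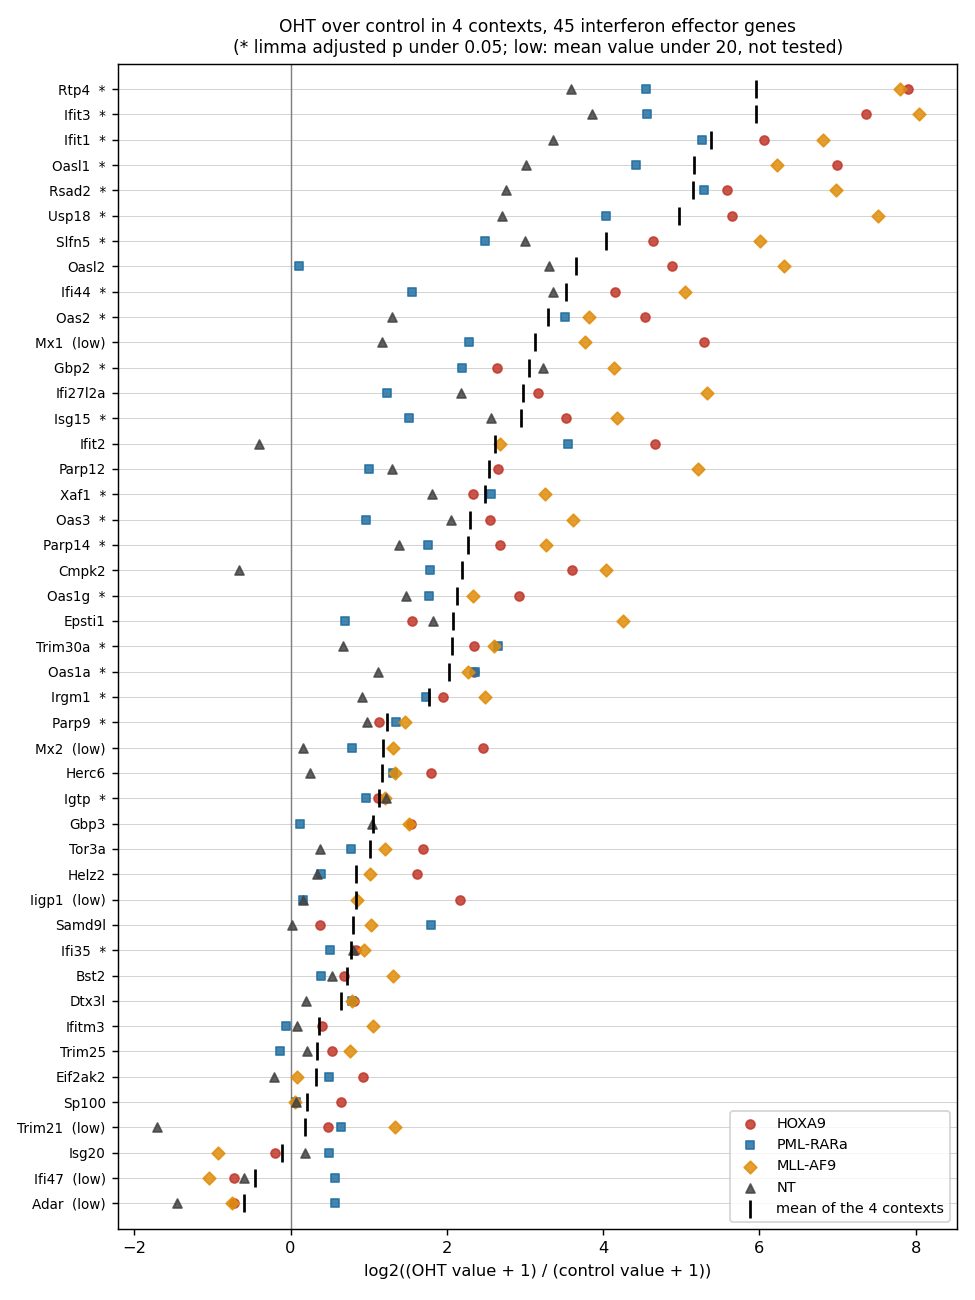
Log2((OHT value + 1) / (control value + 1)) of each of the 45 genes in the HOXA9, PML-RARa, MLL-AF9 and NT contexts, 1 point per pair of libraries, with a black bar at the mean of the 4. Stars mark the 21 genes with a limma adjusted p under 0.05, and the points of NT lie to the left of the mean for most genes, while 6 genes were too low to test.

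The calls rest on having all 4 contexts. Limma called 0 of the 39, and 0 of all transcripts tested, without the HOXA9, the PML-RARa or the MLL-AF9 pair. At an unadjusted p under 0.05 it then gave 26, 31 and 28 of the 39, against 31.3%, 29.1% and 28.1% of all transcripts tested. Without the NT pair 5 rose (Ifit1, Oas1a, Oas2, Rsad2 and Trim30a), against 0.226% of all. With all transcripts tested and no minimum, 11 of the 45 rose, against 1.07% of all.

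The IFIT proteins, which bind foreign RNA and hold back its translation, were among the genes with the largest ratios. Ifit1, which recognises RNA caps lacking a methyl mark, had 785 with OHT against 10.8 in the control in HOXA9 cells, 184 against 3.83 in PML-RARa cells, 828 against 6.35 in MLL-AF9 cells and 154 against 14.1 in NT cells. The 4 OHT libraries stood clear of the 4 controls, and Ifit1 rose by 5.38 ± 0.59 (mean log2 ratio, limma adjusted p = 0.035). Ifit3, whose human counterpart stabilises IFIT1 on RNA and whose near-identical mouse copy Ifit3b may share its reads, had 437 with OHT against 1.66 in the control in HOXA9 cells, 45.2 against 0.957 in PML-RARa cells, 543 against 1.06 in MLL-AF9 cells and 61.3 against 3.31 in NT cells. Its control values were 1 to 4 reads, so in MLL-AF9 cells the fold, 513-fold (95% exact interval of the reads 91.5 to 20304), is bounded only loosely, and Ifit3 rose by 5.96 ± 0.82 on the log2 scale (limma adjusted p = 0.035). Ifit2, the neighbouring gene, had 1661 with OHT against 64.8 in the control in HOXA9 cells, 156 against 12.4 in PML-RARa cells, 1071 against 166 in MLL-AF9 cells and 141 against 187 in NT cells. Ifit2 was high with OHT in the transduced cells but not in NT cells, where the OHT value was the lower one, the groups overlapped, and its mean ratio of 2.62 ± 0.86 did not pass (limma adjusted p = 0.098).

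The OAS proteins sense double-stranded RNA and make oligoadenylates that activate RNase L, and 5 of the 6 genes rose. Oasl1, an OAS-like protein without that activity that restrains translation of Irf7 in mice, had 338 with OHT against 1.66 in the control in HOXA9 cells, 123 against 4.78 in PML-RARa cells, 232 against 2.12 in MLL-AF9 cells and 154 against 18.2 in NT cells. Oasl1 was near the floor in 3 of the controls, and rose by 5.16 ± 0.71 (mean log2 ratio, limma adjusted p = 0.035). Oasl2, its neighbour on the chromosome and an active synthetase in mice, had 1469.6 with OHT against 49.0 in the control in HOXA9 cells, 278 against 258 in PML-RARa cells, 1592 against 19.1 in MLL-AF9 cells and 264 against 25.6 in NT cells. The PML-RARa control library stands apart at 258, level with its OHT partner, while the other contexts show a wide gap, and the mean ratio of 3.65 ± 1.05 did not pass (limma adjusted p = 0.077). Every OHT value of Oasl2 still exceeded every control value, the nearest being 264 in NT with OHT and 258 in the PML-RARa control.

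Oas2 had 1201 with OHT against 50.6 in the control in HOXA9 cells, 131 against 10.5 in PML-RARa cells, 1288 against 90.0 in MLL-AF9 cells and 237 against 96.0 in NT cells. It rose by 3.29 ± 0.56 (mean log2 ratio, limma adjusted p = 0.038), with the smallest ratio, 1.29, in NT cells, where the control was the highest of the 4. Oas3, next to it and the largest of the synthetases, rose by 2.30 ± 0.44 with 541 to 2354 in OHT libraries and 129.9 to 402 in control libraries. The near-copies Oas1a and Oas1g, among which reads can be split, rose by 2.02 ± 0.26 and 2.12 ± 0.27. Oas1g had 15.5 to 276 in OHT libraries and 3.83 to 54.0 in control libraries. Those ranges overlap, though each OHT library exceeded the control of its own context.

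**Figure D3:**
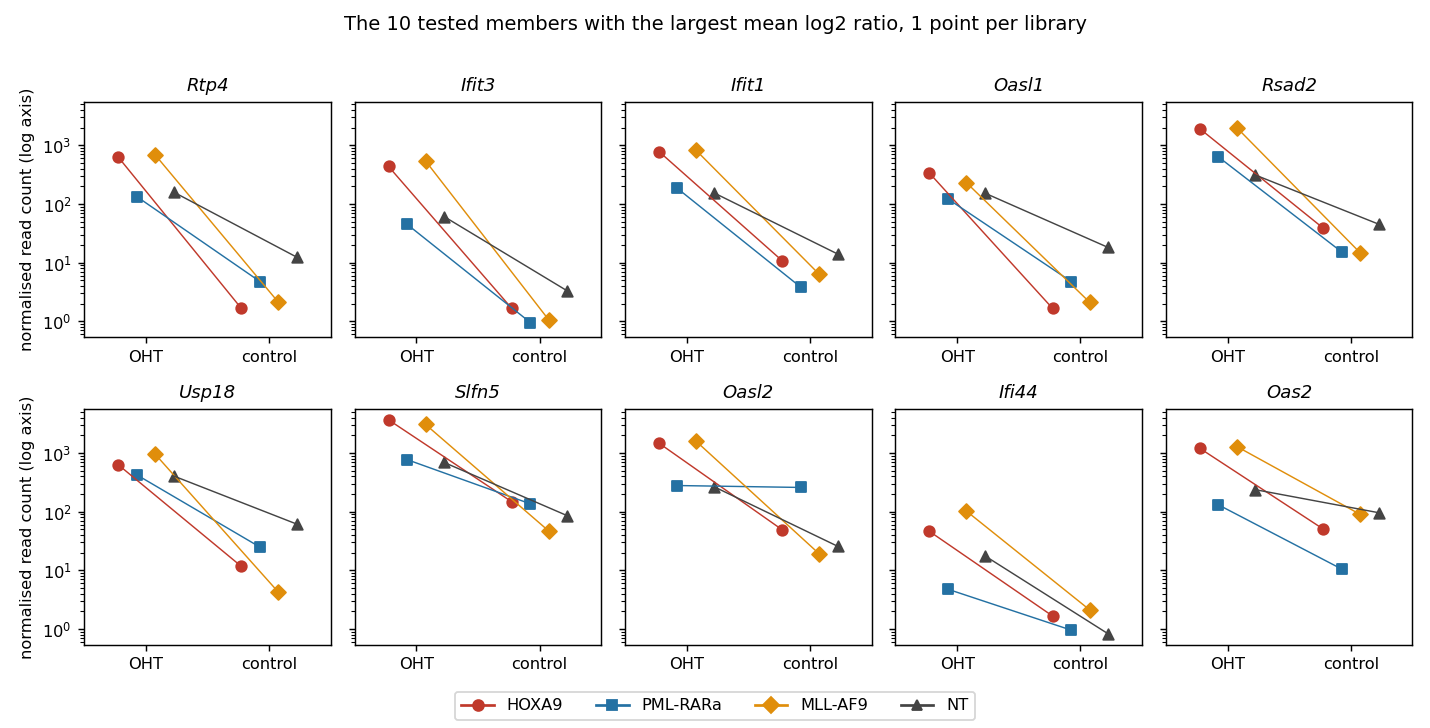
Normalised read counts (log axis) of the 10 tested genes with the largest mean log2 ratio, with OHT libraries on the left and control libraries on the right of each panel, 1 point per library and a line joining the pair of a context. Lines slope down from OHT to control in every panel, and the PML-RARa line of Oasl2 (278 against 258) is nearly flat.

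Isg15 is a ubiquitin-like protein joined to other proteins. It had 489 with OHT against 41.5 in the control in HOXA9 cells, 205 against 70.8 in PML-RARa cells, 708 against 38.1 in MLL-AF9 cells and 176 against 29.0 in NT cells. No OHT value reached down to a control value, and Isg15 rose by 2.95 ± 0.47 (mean log2 ratio, limma adjusted p = 0.036). Usp18, the protease that removes Isg15 and also blocks the interferon receptor, had 632 with OHT against 11.6 in the control in HOXA9 cells, 425 against 24.9 in PML-RARa cells, 955 against 4.24 in MLL-AF9 cells and 405 against 61.2 in NT cells. Its lowest OHT value was 405, its highest control value 61.2, and the mean log2 ratio was 4.98 ± 0.82 (limma adjusted p = 0.037), so both the modifier and its remover rose. The ligases did not pass the test. Herc6, the main Isg15 ligase of the mouse, had 312 to 854 in OHT libraries and 125 to 286 in control libraries and a ratio of 1.18 ± 0.28 (limma adjusted p = 0.055). Trim25, a ligase that also activates the RNA sensor RIG-I, had 1483 to 2545 in OHT libraries and 1285 to 1776 in control libraries and 0.34 ± 0.18 (limma adjusted p = 0.24).

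The guanylate-binding proteins and the immunity-related GTPases attack the vacuoles of intracellular microbes and respond to interferon gamma as well. Gbp2 had 1003 with OHT against 159 in the control in HOXA9 cells, 258 against 55.5 in PML-RARa cells, 802 against 44.5 in MLL-AF9 cells and 335 against 34.7 in NT cells. It rose by 3.05 ± 0.35 (mean log2 ratio, limma adjusted p = 0.035), and its ratio in NT cells, 3.23, was the second highest of the 4 contexts. Igtp, also called Irgm3, had 623 with OHT against 286 in the control in HOXA9 cells, 379.7 against 194 in PML-RARa cells, 546 against 235 in MLL-AF9 cells and 398 against 170.4 in NT cells. Its ratios were nearly equal between the contexts, from 0.96 to 1.22, and Igtp rose by 1.13 ± 0.11 (limma adjusted p = 0.035). Irgm1, a regulator of the other GTPases of this family, rose by 1.77 ± 0.28 with 621 to 1271 in OHT libraries and 221 to 330.1 in control libraries. Gbp3 did not pass (1.06 ± 0.28, limma adjusted p = 0.066), with 0.12 in PML-RARa cells, and closely related Gbp genes can share reads.

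Iigp1 had the lowest control level per length of the 45 genes, 0.977 per kb of transcript in OHT libraries and 0.294 per kb in controls. It had 7.24 with OHT against 0.83 in the control in HOXA9 cells, 1.19 against 0.957 in PML-RARa cells, 2.73 against 1.06 in MLL-AF9 cells and 1.04 against 0.827 in NT cells. The control values were all the lowest entry, so this transcript was not detectable in control cells at this depth. RefSeq lists 2 curated transcripts of Iigp1, of which 1 has values here. Ifi47, with 3.62 to 6.23 in OHT libraries and 2.87 to 9.93 in control libraries, and the antiviral Mx GTPases were also too low to test. Mx1 had 70.6 with OHT against 0.83 in the control in HOXA9 cells, 17.9 against 2.87 in PML-RARa cells, 55.9 against 3.18 in MLL-AF9 cells and 3.12 against 0.827 in NT cells, with 1 to 3 reads in each control. RefSeq gives Mx1 of the reference strain C57BL/6J as a pseudogene that is transcribed. Mx2, whose RefSeq record here is of a non-coding RNA, reached 9.05 with OHT in HOXA9 cells. It stood at the lowest entry in all 4 controls and in the NT library with OHT.

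The ADP-ribosyltransferases form a group with moderate ratios. Parp14 rose by 2.27 ± 0.35 and had 992 to 3936 in OHT libraries and 270.0 to 613 in control libraries. Parp9 and Dtx3l, whose products work as a complex in ubiquitin transfer and whose genes lie next to Parp14, differed in outcome: Parp9 rose by 1.23 ± 0.13 (limma adjusted p = 0.035), and Dtx3l, at 0.65 ± 0.15, did not pass (limma adjusted p = 0.057). Parp12, a translation-repressing member, had 1259 with OHT against 198 in the control in HOXA9 cells, 494 against 247 in PML-RARa cells, 975 against 25.4 in MLL-AF9 cells and 431 against 175 in NT cells. The MLL-AF9 control of Parp12 was far below the other 3, the ratio there was 5.21, and the mean of 2.54 ± 0.76 did not pass (limma adjusted p = 0.083), although no control value reached an OHT value.

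Among the proteins that act on RNA and nucleotides, Rsad2 and Slfn5 rose. Rsad2, or viperin, turns CTP into a chain-ending nucleotide. It had 1923 with OHT against 39.0 in the control in HOXA9 cells, 638 against 15.3 in PML-RARa cells, 2004 against 14.8 in MLL-AF9 cells and 313 against 45.5 in NT cells. The lowest OHT value was 313 and the highest control value 45.5, and Rsad2 rose by 5.15 ± 0.70 (mean log2 ratio, limma adjusted p = 0.035). Cmpk2, the mitochondrial kinase next to Rsad2 that helps to supply CTP, had 988 with OHT against 80.5 in the control in HOXA9 cells, 367 against 105 in PML-RARa cells, 1132 against 67.8 in MLL-AF9 cells and 229.6 against 363 in NT cells. In NT cells the control was the highest of the 4 and above its OHT partner, and the mean of 2.19 ± 0.85 did not pass (limma adjusted p = 0.13).

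Slfn5, a member of the Schlafen family of growth and antiviral regulators, had 3667 with OHT against 147 in the control in HOXA9 cells, 770.0 against 136 in PML-RARa cells, 3061 against 46.6 in MLL-AF9 cells and 689.9 against 85.2 in NT cells. The HOXA9 and MLL-AF9 libraries with OHT stood highest, and Slfn5 rose by 4.03 ± 0.64 (mean log2 ratio, limma adjusted p = 0.036). Eif2ak2, or PKR, which stops translation on sensing double-stranded RNA, had 1432 with OHT against 751 in the control in HOXA9 cells, 775 against 552 in PML-RARa cells, 1097 against 1031 in MLL-AF9 cells and 585 against 677 in NT cells. Its groups overlapped, and its mean ratio of 0.32 ± 0.22 did not pass (limma adjusted p = 0.33). Samd9l, an inhibitor of translation, had 0.80 ± 0.32 (limma adjusted p = 0.14) and a ratio of 0.01 in NT cells, where the control stood at 1320.4. Helz2, a helicase and nuclear receptor coactivator, had 0.84 ± 0.26 (limma adjusted p = 0.086). Isg20, an exonuclease for single-stranded RNA, had 42.5 with OHT against 49.0 in the control in HOXA9 cells, 27.4 against 19.1 in PML-RARa cells, 24.6 against 47.6 in MLL-AF9 cells and 20.8 against 18.2 in NT cells. Isg20 was the only tested gene of the 45 with a mean ratio below 0, -0.11 ± 0.26 (limma adjusted p = 0.77), and Adar, which edits double-stranded RNA, had 2.08 to 4.76 in OHT libraries and 2.87 to 7.45 in control libraries and was not tested. Adar and Isg20 have several RefSeq transcripts each.

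At the cell membrane the picture was divided. Rtp4, a chaperone that carries receptors to the surface, had 634 with OHT against 1.66 in the control in HOXA9 cells, 134 against 4.78 in PML-RARa cells, 690.3 against 2.12 in MLL-AF9 cells and 160.0 against 12.4 in NT cells. With 2 reads in the HOXA9 control the fold there was 382-fold (95% exact interval of the reads 105 to 3161). Rtp4 rose by 5.96 ± 0.88 (mean log2 ratio, limma adjusted p = 0.036), the largest mean of the 45 genes together with Ifit3. Ifitm3, which stops viruses from fusing with endosomal membranes, had the highest level per length of all 45 in controls, at 1203 per kb with OHT and 899.6 per kb in controls. It had 744 with OHT against 565 in the control in HOXA9 cells, 674 against 699 in PML-RARa cells, 1225 against 591 in MLL-AF9 cells and 620.3 against 586 in NT cells. Only the MLL-AF9 pair was 2-fold apart, and the mean of 0.37 ± 0.22 did not pass (limma adjusted p = 0.27). Bst2, or tetherin, which holds budding virus at the surface, had 677 to 1203 in OHT libraries and 471 to 542 in control libraries and 0.73 ± 0.19 (limma adjusted p = 0.063). Ifitm3 and Bst2 were the only genes of the 44 with a known length above 1 read per base of transcript, a density passed by 402 of 18873 transcripts and above which values in these tables level off, and the part of this in their small ratios was not tested.

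Of the TRIM and nuclear body genes, Trim30a, a mouse TRIM protein that restrains signalling from Toll-like receptors, rose by 2.07 ± 0.38 (limma adjusted p = 0.041) and had 1910.3 with OHT against 374 in the control in HOXA9 cells, 494 against 77.5 in PML-RARa cells, 1876 against 307 in MLL-AF9 cells and 582 against 364 in NT cells. Its OHT and control values did not overlap, and near-identical neighbours may share its reads. Sp100, a nuclear body component, had 806 to 1624 in OHT libraries and 769 to 1536 in control libraries and 0.21 ± 0.15 (limma adjusted p = 0.36). Trim21, a receptor for antibody inside the cell, had 2.08 to 15.4 in OHT libraries and 3.18 to 10.8 in control libraries and was not tested.

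Of the remaining genes, Ifi44 had 46.2 with OHT against 1.66 in the control in HOXA9 cells, 4.76 against 0.957 in PML-RARa cells, 102 against 2.12 in MLL-AF9 cells and 17.7 against 0.827 in NT cells. It rose by 3.53 ± 0.59 (mean log2 ratio, limma adjusted p = 0.037) with controls of 1 or 2 reads, and its OHT value was lowest in PML-RARa cells. Xaf1, a partner of the apoptosis inhibitor XIAP, rose by 2.49 ± 0.26 with 95.6 to 402 in OHT libraries and 19.1 to 72.2 in control libraries. Ifi35 rose by 0.77 ± 0.12, the smallest rise of the 21, with 594 to 704 in OHT libraries and 353 to 417 in control libraries, and its ratios in the 4 contexts lay between 0.51 and 0.94. Ifi27l2a (2.98 ± 0.70, limma adjusted p = 0.055), Epsti1 (2.08 ± 0.61, adjusted p = 0.079) and Tor3a (1.01 ± 0.24, adjusted p = 0.058) did not pass, although in each of them every OHT value lay above every control value.

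The size of the ratio can be read beside the control level, although the control value enters both quantities. Over all 45 genes, with no minimum, Spearman's rho between the control mean and the mean log2 ratio was -0.44, against -0.20 over all transcripts in the tables. Ifit1, Ifit3, Oasl1 and Rtp4, with controls near the floor, had large ratios, and Trim25, Sp100, Ifitm3, Eif2ak2 and Samd9l, already high without OHT, had small ones. Adar, Ifi47 and Trim21, low in both groups and not tested, had ratios near or below 0. RefSeq lists 4, 3 and 2 curated transcripts for them, so the value of the transcript used need not be the level of the gene. Sp100, with 6 curated transcripts, was high in both groups.

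**Figure D4:**
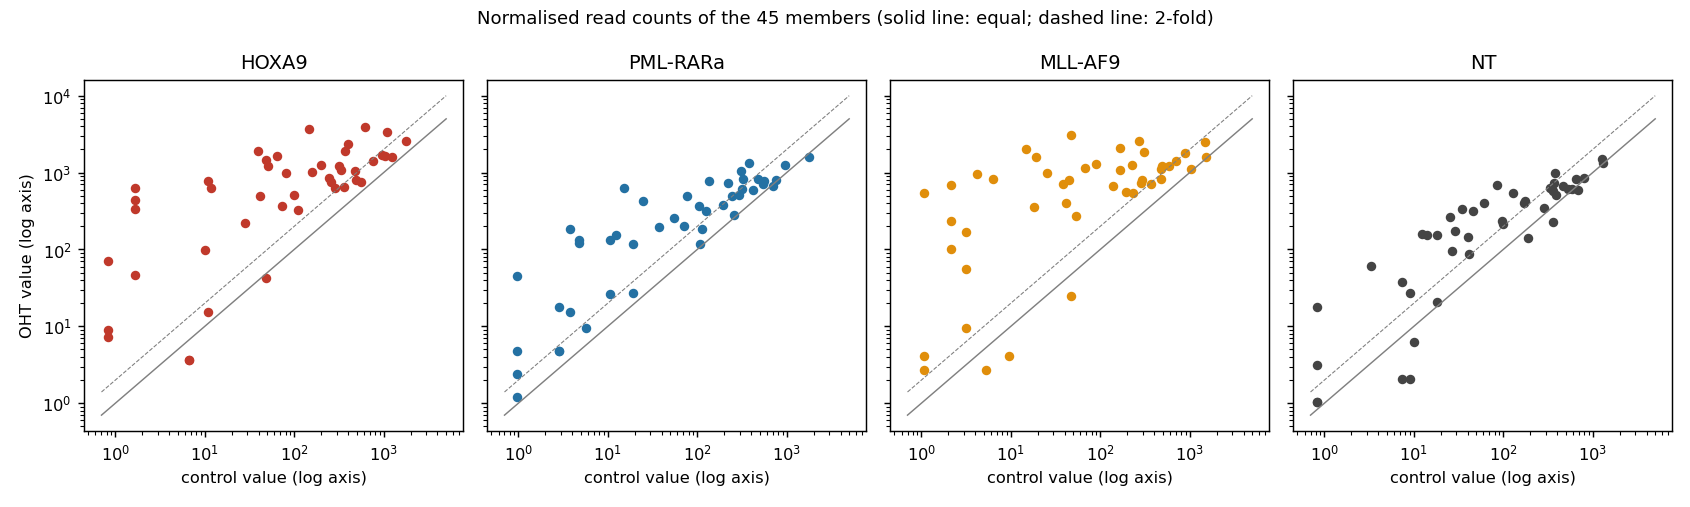
OHT value (vertical log axis) against control value (horizontal log axis) of each of the 45 genes in each context, with a solid line at equality and a dashed line at 2-fold. In HOXA9 and MLL-AF9 cells 31 and 34 genes with a value of at least 20 lie on or above the dashed line, and in PML-RARa and NT cells 21 each.

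Within a context there is 1 library per group and no test. Genes whose values, after adding 1 to each, were 2-fold or more apart were therefore counted, among those that reached 20 in one of the pair. In HOXA9 cells 31 of 40 such genes were higher with OHT and 0 lower, against 9.04% higher and 6.10% lower of all transcripts that reached 20. In PML-RARa cells 21 of 37 were higher and 0 lower (8.83% and 13.5% of all). In MLL-AF9 cells 34 of 40 were higher and 0 lower (14.5% and 15.6%), and in NT cells 21 of 38 were higher and 0 lower (13.5% and 8.64%). The median log2 ratio of the 45 was 2.35 with HOXA9, 1.31 with PML-RARa, 2.49 with MLL-AF9 and 1.04 for NT cells.

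The share of all reads that lay on the 45 genes was also higher with OHT in HOXA9 and MLL-AF9 cells than in the other 2 contexts. It was 0.774% with OHT against 0.232% in the control in HOXA9 cells, 0.317% against 0.170% in PML-RARa cells, 0.727% against 0.192% in MLL-AF9 cells and 0.282% against 0.182% in NT cells. The 95% exact binomial intervals of these shares, which cover counting error only, were 0.767 to 0.780%, 0.312 to 0.322%, 0.719 to 0.736% and 0.278 to 0.287% for the OHT libraries of the 4 contexts, and 0.228 to 0.236%, 0.166 to 0.173%, 0.189 to 0.196% and 0.179 to 0.185% for the controls, so no OHT interval reached that of its control. The summed normalised values were 3.62, 1.90, 3.86 and 1.59 times higher with OHT in those contexts. The highest OHT value was in the HOXA9 library for 23 genes and in the MLL-AF9 library for 20. For 37 of the 39 tested genes both of these OHT libraries exceeded the PML-RARa and NT libraries with OHT, an order found in 24.6% of all transcripts tested.

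**Figure D5:**
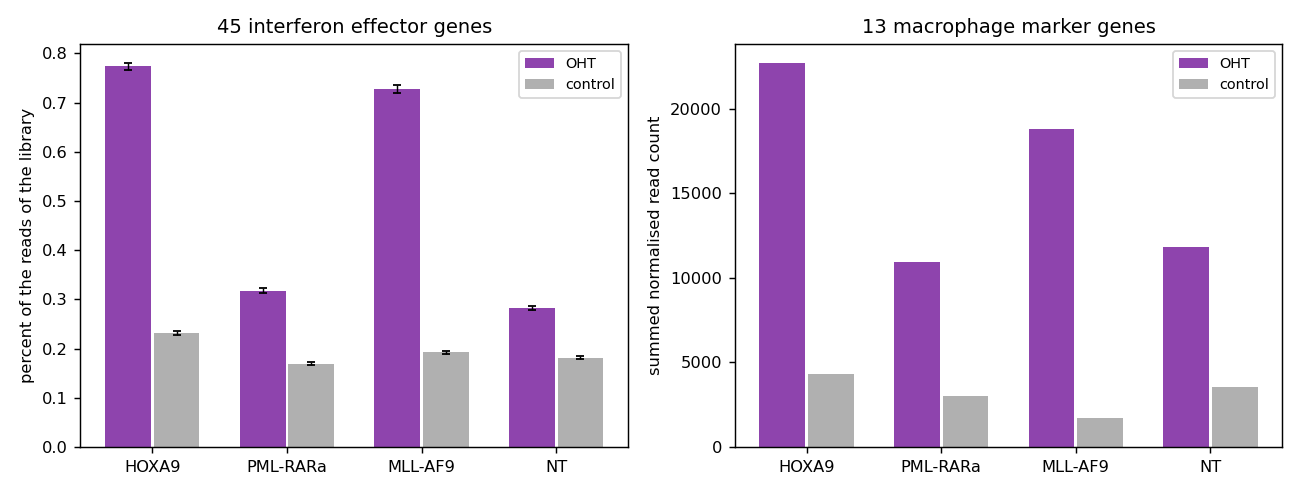
Left, percent of all reads of a library that lay on the 45 genes, with 95% exact binomial intervals (counting error only). Right, summed normalised read count of 13 macrophage marker genes. Purple bars are OHT libraries and grey bars control libraries, 1 library per bar; both panels show the OHT bars of HOXA9 and MLL-AF9 above those of PML-RARa and NT.

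The ratio was smallest in NT cells for 27 of the 45 genes and in PML-RARa cells for 15. The NT log2 ratio minus the mean of the 3 transduced ratios was below 0 for 35 of the 39 tested genes, against 48.1% of all transcripts tested. A limma test of that difference called 0 of 10599 transcripts, 0% of all and 0 of the 39 genes. At an unadjusted p under 0.05 it gave 8 of the genes, against 5.41% of all transcripts tested, and the smallest adjusted p was 0.70. EdgeR also called 0, with 13 of the genes at an unadjusted p under 0.05, against 5.47%. The genes furthest below were Ifit2 (-4.03), Cmpk2 (-3.80) and Rsad2 (-3.20), and those furthest above were Isg20 (0.39), Gbp2 (0.24) and Igtp (0.12), all as differences on the log2 scale.

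The control libraries were also compared with each other, with the same count and no test. Set against the NT control, the HOXA9 control had, of 33 genes that reached 20, 7 at least 2-fold higher (Oas1g, Oas3, Gbp2, Gbp3, Isg20, Xaf1 and Epsti1) and 3 lower (Ifit2, Usp18 and Cmpk2), with 11.6% and 7.30% over all transcripts. The PML-RARa control had, of 31, 5 higher (Oasl2, Oas3, Isg15, Gbp3 and Epsti1) and 9 lower (Ifit2, Oas1a, Oas2, Usp18, Herc6, Rsad2, Cmpk2, Samd9l and Trim30a), with 12.4% and 8.28% over all. The MLL-AF9 control had, of 33, 3 higher (Oas1g, Gbp3 and Isg20) and 5 lower (Usp18, Parp12, Rsad2, Cmpk2 and Epsti1), with 8.59% and 10.7% over all. These 3 comparisons share the NT library. Usp18 stood at 11.6, 24.9 and 4.24 in the HOXA9, PML-RARa and MLL-AF9 controls, against 61.2 in the NT control, and Gbp3 at 261, 107 and 193 in those controls, against 41.4 in NT. The median log2 ratio of the 45 genes to the NT control was 0.07 with HOXA9, -0.19 with PML-RARa and -0.05 with MLL-AF9.

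The genes that make and carry the interferon signal were taken as a separate list of 28, of which 22 were in the tables and 13 could be tested. Of these, Jak1 rose (0.55 ± 0.12, limma adjusted p = 0.046), 0 fell and 12 did not pass. Over all transcripts tested, 6.40% rose and 7.48% fell. The ligand gene Ifnb1, for interferon beta, had 4.52 with OHT against 0.83 in the control in HOXA9 cells, 1.19 against 0.957 in PML-RARa cells, 16.4 against 1.06 in MLL-AF9 cells and 3.12 against 0.827 in NT cells. All 4 control values are the lowest entry and the OHT values are few reads, highest in MLL-AF9 cells, and Ifnb1 was too low to test. Ifna4 reached 8.19 in the MLL-AF9 library with OHT and stood at the lowest entry in the other 7 libraries. The receptor gene Ifnar1 had 0.54 ± 0.22 (limma adjusted p = 0.15) and Ifnar2 0.34 ± 0.21 (adjusted p = 0.29). Stat2, part of the complex that binds the response element, had 0.78 ± 0.27 (limma adjusted p = 0.11), while Irf9, a gene with few reads here, had 6.23 to 9.95 in OHT libraries and 0.957 to 3.31 in control libraries and was not tested. Of the genes that damp the signal, Socs3 had 0.73 ± 0.21 (limma adjusted p = 0.080) and Socs1 0.21 ± 0.25 (adjusted p = 0.58). The tested genes of the list with a ratio below 0 were Ifngr1 (-0.69 ± 0.18, limma adjusted p = 0.064), Ptpn2 (-0.65 ± 0.31, adjusted p = 0.20) and Irf3 (-0.23 ± 0.15, adjusted p = 0.30). Irf1 and Tyk2, too low to test, were also below 0 (-0.51 and -0.32).

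Most macrophage markers moved with the interferon effectors. Of 14 listed, 13 were in the tables and 11 rose (Csf1r, Emr1, Cd68, Marco, C1qa, C1qb, C1qc, Mrc1, Mertk, Siglec1 and Msr1), against 6.40% of all transcripts tested. None fell, against 7.48%. Marco, with 0.83 to 14.1 in control libraries, and Siglec1, with 0.957 to 8.30, reached the minimum mean for testing only through their OHT libraries. The count of 11 is therefore a description. Fcgr1 (3.95 ± 0.90, limma adjusted p = 0.052) and Cd14 (0.52 ± 0.42, limma adjusted p = 0.40) did not pass. Cd14 was lower with OHT in PML-RARa cells, at 204 against 342. None of the 13 stood at the lowest entry in every library, and their summed value was 10946 to 22712 in OHT libraries and 1701 to 4292 in controls. The OHT sums were 22712 with HOXA9, 10946 with PML-RARa, 18809 with MLL-AF9 and 11836 for NT cells, so the contexts with the highest interferon effector values also had the highest macrophage sums. Siglec1, a macrophage receptor that is itself induced by interferon, had 1012 with OHT against 8.30 in the control in HOXA9 cells, 46.4 against 0.957 in PML-RARa cells, 495 against 5.29 in MLL-AF9 cells and 46.8 against 3.31 in NT cells. Markers of plasmacytoid dendritic cells, which make much interferon alpha, were near the floor, with 5 of 7 in the tables, none tested and sums of 9.52 to 17.7 in OHT libraries and 7.45 to 29.6 in controls. Markers of T, B and NK cells (7 of 9, none tested) summed to 8.14 to 27.4 in OHT libraries and 11.6 to 22.0 in controls, each with at most 10 reads in every library. Neutrophil genes (7 of 8) had 0 past the limma test, with sums of 2426 to 9056 in OHT libraries and 6124 to 11453 in controls. Mpo, Elane, Ltf, Camp, Ngp and S100a8 passed 1 read per base of transcript (highest densities 1.15 to 1.73), where values level off. So did Csf1r, Emr1, C1qb and Mrc1 of the macrophage markers, and Gata2. The part of this in their ratios and in the sums was not tested. Of 8 stem and progenitor genes Cd48 rose, Myb and Erg fell, and the sums were 1825 to 5813 in OHT libraries and 1495 to 4977 in controls. Gata2 alone had 811 to 4618 in OHT libraries and 536 to 3765 in controls, so these sums describe the other genes poorly. The part of these cell types in the rise of the 45 genes was not tested.

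Promoter letters and ratios were set side by side as a description. The 17 genes with a response element core had a median mean log2 ratio of 2.07, from 0.18 (Trim21) to 5.96 (Ifit3), and 12 of the 16 tested rose. The 18 with a window and no core had a median of 1.01, and 4 of the 16 tested rose (Oasl1, Ifi44, Ifi35 and Xaf1). The 10 genes with no window had the highest median, 2.63, and 5 of the 7 tested rose. Over all transcripts tested, 6.40% rose. Whether the 10 hold a core is not known, and the difference between the groups was not tested. The core is thus present in genes with ratios near 0, such as Eif2ak2 and Ifitm3, and was not found among the letters of the window of Oasl1, whose ratio was 5.16. Several of the 45 lie next to each other in the order of protein-coding genes: Rsad2 and Cmpk2, Ifit2 and Ifit3, Oasl2 and Oasl1, Oas2 and Oas3, Oas1g and Oas1a, and Parp14, Dtx3l and Parp9. In the first 3 of these pairs Rsad2, Ifit3 and Oasl1 rose and Cmpk2, Ifit2 and Oasl2 did not pass, a difference within the pairs that was not tested. The libraries keep no strand, so reads where neighbouring transcripts overlap cannot be told apart.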

How the data were processed

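Per the labels' protocols, libraries were made with a TruSeq RNA v2 kit, which keeps no strand, and the submitters' processing notes name TopHat, DESeq and mm9, with no version. The sources used here do not name the read counter or its annotation. Per the file headers, the signal columns of the 4 deposited tables, 1 per context, hold the authors' normalised read count of each transcript in each library. The authors' deposited fold change (a ratio), its log2 and their p-value, which compares 1 library with 1 library, were not used. Every value divided by the lowest value of its library gave whole reads for 100% of values (tolerance 0.02). The lowest entry was 1 read, there was no 0, and 15.1% to 20.0% of transcripts stood there, so whether such an entry means 0 or 1 read is not known. The OHT library had the lower size factor in every pair.

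The normalised values were tested with limma (3.58.1, R 4.3.3), two-sided, on log2(value + 1), with the context as a block, over 10599 transcripts with a mean of at least 20. The fits were checked on simulated data. Alternatives were edgeR (4.0.16) and DESeq2 (1.42.0) on the recovered reads, other pseudocounts and filters, centred ratios, summed transcripts, no block, and leaving out each pair. Folds with intervals come from exact conditional binomial limits of the reads and cover counting error only. Promoter windows are RefSeq's on GRCm38.p6, matched by symbol, and no coordinate was taken from mm9. Positions are counted from the start base as 0. A result for 1 gene of the interferon pathway list is not reported here. The members, the lists and the rule for naming genes were chosen with earlier results of these data known. The rule gives every library's value for the 10 tested genes with the largest mean ratio, the lowest and highest control level per length, the 3 genes in each direction whose NT ratio departs most, and others as each group needed.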

Additional observations from a re-analysis of the deposited data

Results flagged for a closer look

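In 3 of the tested genes the NT pair moved against all 3 transduced pairs. The log2 ratio of Ifit2 was -0.40 in NT cells, against 4.66 with HOXA9, 3.55 with PML-RARa and 2.68 with MLL-AF9. That of Cmpk2 was -0.66 in NT cells, against 3.60, 1.79 and 4.04 in the same transduced contexts. That of Eif2ak2 was -0.21 in NT cells, against 0.93, 0.49 and 0.09. The limma test of NT against the transduced contexts did not pass for any of them, with differences of -4.03 for Ifit2 (limma adjusted p = 0.82), -3.80 for Cmpk2 (limma adjusted p = 0.83) and -0.71 for Eif2ak2 (limma adjusted p = 0.999), and NT has a single pair. Trim21, too low to test, was also lower with OHT only in NT cells (-1.71, with 2 reads against 11). Its ratios were 0.47 with HOXA9, 0.64 with PML-RARa and 1.34 with MLL-AF9.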

How the results depend on the processing

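No gene among the 39 tested fell under any alternative run, and the count of risen genes, 21, varied. Beside the 6.40% of all transcripts that rose in the fit reported, it was 11 with no filter on low values (of 45, against 1.07% of all), 34 with DESeq2 (16.7%), 28 with edgeR (12.0%) and 17 without the context block (3.67%). Without 1 pair it ranged from 0 to 5 by limma and, in fits added after the data were seen, from 0 to 24 by edgeR (6 without HOXA9, against 1.74% of all, 0 without PML-RARa and MLL-AF9, 0% of all, and 24 without NT, against 3.43%; 29, 32, 31 and 35 of the genes at an unadjusted p under 0.05, against 33.1%, 31.6%, 31.1% and 32.7%). The smallest limma adjusted p over all transcripts was 0.056, 0.099 and 0.079 without the HOXA9, PML-RARa and MLL-AF9 pairs. A pseudocount of 10, centred ratios and summed transcripts each gave 21 (6.96%, 6.66% and 6.20% of all), a mean of at least 50 gave 23 (7.91%), and limma with trend and robust options 26 (10.4%). The median ratio of the 45 genes lay between 1.58 and 2.33 under every alternative run. Isg20 had a mean ratio of -0.11, which ranged from -0.32 without the PML-RARa pair to 0.16 without the MLL-AF9 pair (0.21 by edgeR), where it reversed; the cause was not tested. At 4-fold in place of 2-fold, 13 genes were higher with OHT in PML-RARa cells and 12 in NT cells. In the control contrasts with NT, 4-fold left 2 higher in HOXA9, 1 higher and 3 lower in PML-RARa and 3 lower in MLL-AF9, where a value of at least 50 also left 3. Counts of 0 lower with OHT and of 0 called for the NT difference did not change, and the promoter share was 40.0% in the 250 bases before the start alone. Depth limits genes with controls at 1 to 3 reads. The labels give no replicate numbers; the fit pairs the OHT and control libraries of each context through the context block.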
